A study of Homo sapiens with 6 samples.

Results

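The genes described here are NFE2L2, which encodes the transcription factor NRF2, 8 genes widely known as its targets (HMOX1, NQO1, TXNRD1, GCLM, GCLC, SRXN1, SLC7A11 and AKR1C1), and SOD2, the superoxide dismutase of mitochondria. They were chosen by symbol from a fixed list, with earlier results of these data known, and all 10 were found among the 58174 genes in the data. RNA was sequenced from T24, an established human bladder cancer cell line, in 6 samples. The 3 shRNA-NC samples carried a scrambled control shRNA and the 3 shRNA-UBC9 samples an shRNA against UBC9, the sole conjugating enzyme for SUMO, a small protein that is attached to other proteins. According to the study's methods the shRNA was delivered by lentivirus and the cells were selected with puromycin. In these samples UBC9 was targeted with a single hairpin in a single line, so its effect and any effect of that hairpin on other transcripts cannot be told apart in them. The study also knocked UBC9 down in another bladder cancer line and used an inhibitor of SUMO attachment, but not in this RNA-seq. The sources used here do not say whether the 3 samples of a group came from separate cultures, and if they did not, the p-values cover technical spread alone.

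NRF2 is held low in unstressed cells because KEAP1, an adaptor of a CUL3 ubiquitin ligase, hands it over for degradation. Oxidants and electrophiles modify KEAP1, NRF2 builds up, pairs with a small MAF protein and binds the antioxidant response element of its target genes, while BACH1 competes for the same element. Much of this control acts on the protein, which RNA-seq does not measure. The targets make glutathione, keep thioredoxin and peroxiredoxins reduced, break down heme, store iron and reduce quinones. SOD2 turns superoxide into hydrogen peroxide in the mitochondrial matrix and is best known as a target of the inflammatory factor NF-κB.

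Fold changes here compare means of log2(RPKM + 0.1), and p-values are adjusted over all 12428 genes that reached 0.5 RPKM in 3 or more samples, which all 10 genes did. RPKM is the number of reads scaled to gene length and to all mapped reads. Read counts were not analysed here and the absolute depth is unknown, but the steps in low values put the depth of the samples between 0.945 and 1.21 times that of shRNA-NC replicate 1. The keratins KRT7, KRT8, KRT18 and KRT19 were at 19.3 RPKM or more in all samples, and the summed level of the 6 epithelial markers was 938 to 1108 RPKM in shRNA-NC and 426 to 563 RPKM in shRNA-UBC9. Another of them, CDH1, the cadherin of epithelial junctions, was at or near 0. The last of the 6, EPCAM, did not share the fall of the sum. It had 0.412 to 0.986 RPKM in shRNA-NC and 0.732 to 2.51 RPKM in shRNA-UBC9 (log2 fold change 0.996, adjusted p = 0.0984 in limma). Of 10 urothelial markers 7, among them the 4 uroplakins UPK1A, UPK1B, UPK2 and UPK3A, stayed below 0.5 RPKM in all 6. The other 3, PPARG, FOXA1 and GATA3, were all lower (log2 fold changes -2.15, -1.08 and -0.79, adjusted p = 0.00169, 0.000951 and 0.016), and the summed level of the list was 33.4 to 42.2 RPKM in shRNA-NC and 12.7 to 15.5 RPKM in shRNA-UBC9. Of 10 markers of blood, endothelial, stromal and liver cells 7 stayed below 0.5 RPKM throughout. Their summed level was 2.85 to 4.33 RPKM in shRNA-NC and 20.8 to 50.1 RPKM in shRNA-UBC9, which was mostly CD68, a lysosomal protein abundant in macrophages (mean 32.2 RPKM in shRNA-UBC9), while the leukocyte gene PTPRC did not exceed 0.102 RPKM. The part of this in the results was not tested, and in bulk RNA fewer cells with a transcript and less of it per cell cannot be told apart.

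The antioxidant response element is shown first, because it is the element by which NRF2 is known to reach its targets. Its core, TGACNNNGC, was searched on both strands from 250 bases before to 50 bases after each transcription start of RefSeq (GRCh38.p14). Windows were matched by symbol for 8 of the 10 genes, 13 windows in all. HMOX1 and SLC7A11 were not matched. The core was found in GCLM and TXNRD1, in 3 of the 13 windows, while 13.3% of all 35116 windows held it. The stretches below read in the direction of the gene, and capitals mark the core or, where it lies on the other strand, its reverse complement.
GCLM, 34 bases before its start (chr1:93909446-93909474, minus strand): tacgatttctGCTTAGTCAttgtcttcca
TXNRD1, 102 bases before its inner start (chr12:104286920-104286948, plus strand): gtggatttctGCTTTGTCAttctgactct
TXNRD1, 99 bases before its outer start (chr12:104215670-104215698, plus strand): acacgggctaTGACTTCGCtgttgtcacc
Another match, 8 bases before the outer start of TXNRD1, ended at that start. A binding motif of NF-κB, searched in the same way and present in 5.91% of all windows, was in none of the 13, the 4 windows of SOD2 included. A match is a matter of letters and does not show that a factor was bound, and elements outside these windows were not searched.

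In shRNA-UBC9 cells SOD2 was 5.96 times as high as in shRNA-NC, HMOX1 was 2.22 times and SRXN1 1.58 times as high, and NFE2L2 itself was 1.33 times as high (ratios of mean RPKM, n = 3 each). The other 6 genes did not pass the test, among them NQO1, GCLM, GCLC and TXNRD1. Thus 4 of the 10 were higher at an adjusted p below 0.05 in limma and 0 were lower, also 0 at an unadjusted p below 0.05. Of all 12428 tested genes 36.8% passed this test, 18.8% higher and 18.0% lower, so 4 of 10 in either direction is a share near that of any genes, and the count is not a result about this pathway. SOD2 and HMOX1 were DEGs, that is, their |log2 fold change| was also above 1, which held for 5.20% of tested genes upwards, 2.70% downwards and 7.89% in either direction. The median log2 fold change of the 10 genes was 0.36, against 0.01 over all tested genes.

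**Figure D1:**
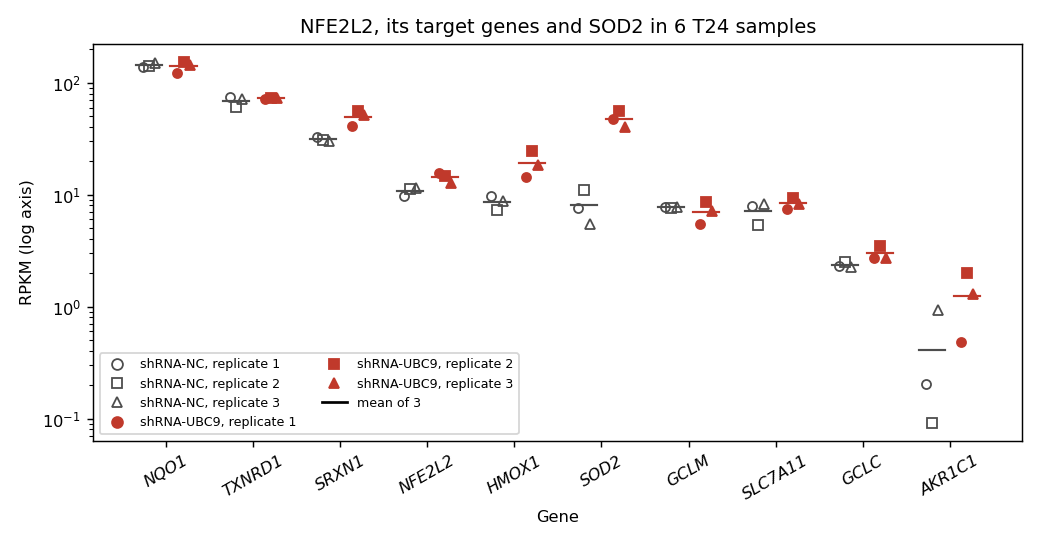
RPKM on a log axis of NFE2L2, 8 of its target genes and SOD2 in each of the 6 T24 samples, with grey open symbols for shRNA-NC, red filled symbols for shRNA-UBC9, a symbol shape for each replicate number and a line at each group mean. SOD2 lies at 5.48 to 10.9 RPKM in shRNA-NC and at 40.6 to 55.7 RPKM in shRNA-UBC9, while the symbols of NQO1, TXNRD1, GCLM, SLC7A11 and AKR1C1 overlap between the groups.

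NFE2L2 (chr2:177218667-177392756, minus strand) had 9.76, 11.2 and 11.5 RPKM in shRNA-NC replicates 1, 2 and 3, and 15.5, 14.8 and 12.7 RPKM in shRNA-UBC9 replicates 1, 2 and 3. The groups did not overlap, which held upwards for 25.7% of tested genes and for 5 of these 10, and downwards for 25.4% and for 0 of these 10. For NFE2L2 the log2 fold change was 0.40 (SE 0.11, 95% interval 0.15 to 0.65, adjusted p = 0.0211). This call rested on single samples. Without shRNA-NC replicate 1 the log2 fold change was 0.33 (adjusted p = 0.0696), and without shRNA-UBC9 replicate 2 it was 0.38 (adjusted p = 0.0693). In GENCODE release 44 the spans of coding genes on the opposite strand overlap that of NFE2L2, but exons were not compared. Any reads shared with those genes cannot be told apart, since the strand setting of the counting is not given in the sources used here. HNRNPA3 had 80.0 to 88.3 RPKM in shRNA-NC and 62.4 to 65.3 RPKM in shRNA-UBC9, and AGPS had at least 11.3 RPKM in shRNA-NC and 8.64 to 9.0 RPKM in shRNA-UBC9, so both were lower where NFE2L2 was higher.

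SOD2 (chr6:159669069-159762529, minus strand) had 7.61, 10.9 and 5.48 RPKM in shRNA-NC replicates 1, 2 and 3. In shRNA-UBC9 it had 47.0, 55.7 and 40.6 RPKM in replicates 1, 2 and 3. The lowest shRNA-UBC9 sample was thus far above the highest shRNA-NC sample. For SOD2 the log2 fold change was 2.60 (SE 0.23, 95% interval 2.08 to 3.13, adjusted p = 0.000171 from limma), and it stayed between 2.36 and 2.86 in the 14 alternative fits, which changed the pseudocount, filter, scaling or model or left out a sample. WTAP, which overlaps the SOD2 gene on the opposite strand in GENCODE release 44, had 12.9 to 14.8 RPKM in shRNA-NC and 12.8 to 16.0 RPKM in shRNA-UBC9. ACAT2, which also overlaps it on that strand, had 18.8 to 20.3 RPKM in shRNA-NC and 9.02 to 11.7 RPKM in shRNA-UBC9. Here too only whole gene spans were compared, and any reads shared with these neighbours cannot be told apart either.

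HMOX1 (chr22:35380361-35394214, plus strand) encodes heme oxygenase 1, the inducible enzyme that opens heme to biliverdin, carbon monoxide and iron. It had 9.78, 7.32 and 8.70 RPKM in shRNA-NC replicates 1, 2 and 3, and 14.5, 24.3 and 18.4 RPKM in shRNA-UBC9 replicates 1, 2 and 3. All shRNA-UBC9 samples were above all shRNA-NC samples, with the widest spread in shRNA-UBC9. HMOX1 had a log2 fold change of 1.12 (SE 0.19, 95% interval 0.69 to 1.55, adjusted p = 0.0028). Without shRNA-UBC9 replicate 2 it was 0.93 (adjusted p = 0.00593), below the cutoff of 1 for a DEG, which left SOD2 as the single DEG of the 10.

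SRXN1 (chr20:646615-653200, minus strand) encodes sulfiredoxin, which repairs over-oxidised peroxiredoxins. Its level was 33.0, 30.8 and 30.1 RPKM in shRNA-NC replicates 1, 2 and 3, and 40.9, 55.9 and 51.3 RPKM in shRNA-UBC9 replicates 1, 2 and 3. The groups did not overlap. SRXN1 had a log2 fold change of 0.64 (SE 0.12, 95% interval 0.37 to 0.92, adjusted p = 0.0046), and it passed the test in all 14 alternative fits.

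The remaining targets include the enzymes and the transporter that set the supply of glutathione. GCLC (chr6:53497341-53616970, minus strand) encodes the catalytic subunit of glutamate-cysteine ligase, the rate-limiting enzyme. It had 2.31, 2.53 and 2.24 RPKM in shRNA-NC replicates 1, 2 and 3, and 2.74, 3.49 and 2.73 RPKM in shRNA-UBC9 replicates 1, 2 and 3. These values did not overlap, but with a log2 fold change of 0.32 (95% interval 0.03 to 0.61) the adjusted p was 0.079. GCLM (chr1:93885199-93909456, minus strand) encodes the modifier subunit of the same enzyme and carries the core shown above. It was almost equal in the shRNA-NC samples, at 7.72, 7.65 and 7.78 RPKM, and had 5.52, 8.58 and 7.10 RPKM in shRNA-UBC9 replicates 1, 2 and 3. The shRNA-UBC9 samples lay on both sides of the shRNA-NC samples, and the log2 fold change was -0.15 (95% interval -0.49 to 0.19, adjusted p = 0.465).

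SLC7A11 (chr4:138164097-138242349, minus strand) encodes the cystine importer xCT, which works as a pair with SLC3A2. It had 7.95, 5.36 and 8.22 RPKM in shRNA-NC replicates 1, 2 and 3, and 7.50, 9.34 and 8.22 RPKM in shRNA-UBC9 replicates 1, 2 and 3. The groups overlapped, and shRNA-NC replicate 2 was the lowest of the 6 samples. The log2 fold change was 0.23 (95% interval -0.15 to 0.62, adjusted p = 0.307), and without that sample it was 0.04 (adjusted p = 0.815). Its partner SLC3A2 fell from 72.0 ± 8.3 to 47.0 ± 9.4 RPKM (log2 fold change -0.63, adjusted p = 0.0155; SD, n = 3 each). Without shRNA-NC replicate 1 the adjusted p of SLC3A2 was 0.0591.

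The most abundant of the 10 were NQO1 and TXNRD1. NQO1 (chr16:69706996-69726668, minus strand) encodes a quinone reductase that is often read as a gauge of NRF2 activity. Its level was 139, 139.9 and 151 RPKM in shRNA-NC replicates 1, 2 and 3, and 121, 153 and 145 RPKM in shRNA-UBC9 replicates 1, 2 and 3. The values interleaved, and the log2 fold change was -0.04 with a 95% interval of -0.28 to 0.20 (adjusted p = 0.786), so a doubling or a halving lies outside this interval. TXNRD1 (chr12:104215779-104350307, plus strand) encodes the cytosolic thioredoxin reductase. It had 74.0, 61.1 and 72.2 RPKM in shRNA-NC replicates 1, 2 and 3, and 71.2, 72.4 and 73.6 RPKM in shRNA-UBC9 replicates 1, 2 and 3. TXNRD1 had a log2 fold change of 0.07 (95% interval -0.14 to 0.29, adjusted p = 0.58). Neither interval includes the log2 fold change of HMOX1, 1.12. Within a sample, the log2 ratio of HMOX1 to NQO1 was -4.05 ± 0.22 in shRNA-NC and -2.89 ± 0.22 in shRNA-UBC9 (SD, n = 3 each; exact permutation test, two-sided, p = 0.1, the smallest that 3 samples against 3 allow). This ratio, like the others below, was chosen after the values had been seen.

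AKR1C1 (chr10:4963253-4983283, plus strand), an aldo-keto reductase of steroids and reactive aldehydes, was the lowest of the 10. It passed the filter on low values with 3 samples, 2 of them shRNA-UBC9. It had 0.203, 0.0922 and 0.941 RPKM in shRNA-NC replicates 1, 2 and 3, and 0.484, 2.0 and 1.29 RPKM in shRNA-UBC9 replicates 1, 2 and 3. shRNA-NC replicate 3 was above shRNA-UBC9 replicate 1, so the groups overlapped. The log2 fold change was 1.60 (SE 0.66, 95% interval 0.10 to 3.11, adjusted p = 0.0887). It depended on the pseudocount, at 0.67 with a pseudocount of 1, and on single samples: without shRNA-NC replicate 3 it was 2.31 (adjusted p = 0.0198), and without shRNA-UBC9 replicate 1 it was 2.12 (adjusted p = 0.0345). In the other direction it was 1.09 without shRNA-NC replicate 2 and 1.2 without shRNA-UBC9 replicate 2 (adjusted p = 0.242 for each). AKR1C1 has close relatives with nearly the same sequence, and how the authors assigned reads shared among them is not given in the sources used here. AKR1C2 was at most 0.083 RPKM in every sample and was not tested. AKR1C3 had 0.702, 0.357 and 1.81 RPKM in shRNA-NC replicates 1, 2 and 3 and 1.31 to 1.73 RPKM in shRNA-UBC9 (adjusted p = 0.148).

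**Figure D2:**
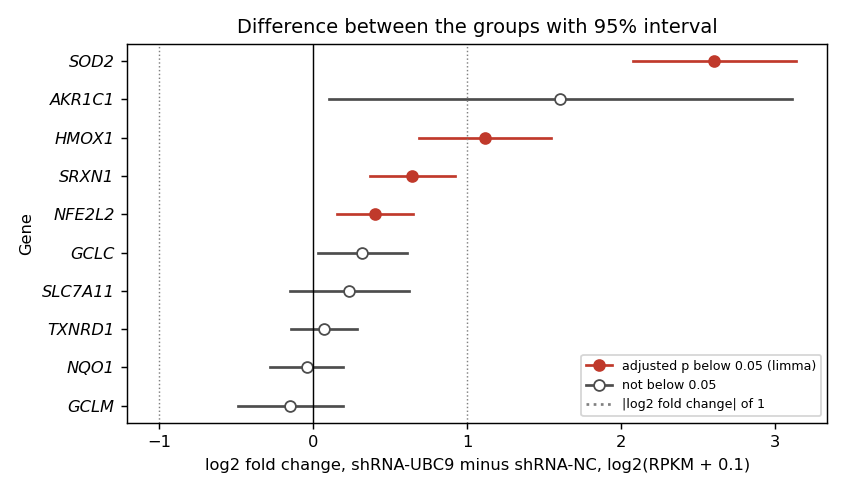
Log2 fold change of the 10 genes between shRNA-UBC9 and shRNA-NC (positive is higher in shRNA-UBC9) on the log2(RPKM + 0.1) scale, with 95% intervals from limma as bars, filled red points for an adjusted p below 0.05 and open grey points otherwise. SOD2, HMOX1, SRXN1 and NFE2L2 are filled, at 2.60, 1.12, 0.64 and 0.40, and the bar of AKR1C1 is the widest, from 0.10 to 3.11.

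Ordered by level, the 10 genes in shRNA-NC ran from NQO1 (143 RPKM on average) over TXNRD1 (69.1 RPKM) and SRXN1 (31.3 RPKM) down to NFE2L2, HMOX1, SOD2, GCLM and SLC7A11, which lay between 7.18 and 10.8 RPKM. The ranges of neighbours among these last 5 overlapped, so that their order is within the spread. GCLC (2.36 RPKM) and AKR1C1 (0.412 RPKM) came last, each apart from the gene above it. In shRNA-UBC9 SOD2 (47.7 RPKM) stood beside SRXN1 (49.3 RPKM) with overlapping ranges, and apart from HMOX1 (19.1 RPKM), which in turn overlapped NFE2L2 (14.3 RPKM).

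The genes that control NRF2 were taken from a list of 14, which also holds its relatives NFE2L1 and NFE2L3, and of which 13 were tested. Of these 8 were higher and 1 was lower at an adjusted p below 0.05, with a median log2 fold change of 0.36, beside 18.8% higher and 18.0% lower among all tested genes. The 8 include NFE2L1, the partner MAFF and the repressor BACH1, so the count gives no direction for NRF2 itself. With each sample left out in turn, 6 to 8 were higher. BTRC, a subunit of another ubiquitin ligase of NRF2 that was named after its values had been seen, was 1 of the 8 and lost its call in 10 of 14 alternative fits. SQSTM1, which encodes the autophagy receptor p62 that binds KEAP1 and is itself an NRF2 target, had 36.9, 33.2 and 32.2 RPKM in shRNA-NC replicates 1, 2 and 3, and 127, 182 and 141 RPKM in shRNA-UBC9 replicates 1, 2 and 3. These ranges were far apart, with a log2 fold change of 2.12 (SE 0.14, adjusted p = 3.47e-05). MAFF, a small MAF partner of NRF2, rose from 9.23 ± 0.92 to 36.0 ± 4.6 RPKM (log2 fold change 1.95, adjusted p = 2.81e-05; SD, n = 3 each). BACH1, the repressor at the antioxidant response element, had 4.01, 5.16 and 4.18 RPKM in shRNA-NC replicates 1, 2 and 3, and 22.4, 12.3 and 9.37 RPKM in shRNA-UBC9 replicates 1, 2 and 3. Its log2 fold change was 1.61 (adjusted p = 0.00322). BACH1 was highest in shRNA-UBC9 replicate 1, where HMOX1 was the lowest of that group, as were 41.7% of all tested genes. Another target, FTH1, was the highest of the group there, at 2213 RPKM, and between the groups BACH1 and HMOX1 both rose. The part of BACH1 in this was not tested. The log2 fold change of KEAP1 was 0.12 (95% interval -0.13 to 0.36, adjusted p = 0.418), at 15.2 to 17.6 RPKM in shRNA-NC and 16.0 to 19.5 RPKM in shRNA-UBC9. NFE2L3, a relative of NRF2, fell from 9.89 ± 1.26 to 5.37 ± 1.57 RPKM (SD, n = 3 each; adjusted p = 0.0111).

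Of 27 other NRF2 targets listed, 23 were tested, and 3 were higher and 4 lower. Among all tested genes 36.8% passed in either direction, so this count is not a result about NRF2 targets. The most abundant that rose was FTH1, the heavy chain of the iron store ferritin, at 639, 716 and 638 RPKM in shRNA-NC replicates 1, 2 and 3 and at 2213, 2023 and 1639 RPKM in shRNA-UBC9 replicates 1, 2 and 3 (log2 fold change 1.55, SE 0.12, adjusted p = 9.68e-05). The light chain FTL, named after its values had been seen, had 579 to 606 RPKM in shRNA-NC and 497 to 679 RPKM in shRNA-UBC9 (log2 fold change -0.0035, 95% interval -0.28 to 0.27). The log2 ratio of FTH1 to FTL within a sample was 0.16 ± 0.09 in shRNA-NC and 1.71 ± 0.40 in shRNA-UBC9 (SD, n = 3 each; exact permutation test, two-sided, p = 0.1, the smallest possible here). OSGIN1, an oxidative stress-induced growth inhibitor, rose from 1.40 ± 0.41 to 2.77 ± 0.51 RPKM, and the export pump ABCC3 from 1.89 ± 0.41 to 2.81 ± 0.18 RPKM (SD, n = 3 each; adjusted p = 0.010 and 0.0216). ABCC3 lost its call without shRNA-NC replicate 1 or 2 or shRNA-UBC9 replicate 1 or 2, with an adjusted p of up to 0.0726.

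The targets that fell included UGDH, which makes UDP-glucuronic acid for conjugation and for hyaluronan. It had 27.1, 27.4 and 29.8 RPKM in shRNA-NC replicates 1, 2 and 3, and 4.79, 6.31 and 5.98 RPKM in shRNA-UBC9 replicates 1, 2 and 3. With a log2 fold change of -2.29 (SE 0.12, adjusted p = 1.41e-05) this was the largest fall on the list. TKT, the transketolase of the pentose phosphate pathway, fell from 56.1 ± 3.5 to 34.1 ± 3.8 RPKM, and CBR3, a carbonyl reductase, from 21.4 ± 3.1 to 13.2 ± 1.8 RPKM (SD, n = 3 each; adjusted p = 0.00147 and 0.00547). The other gene that fell was FECH, described with heme.

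Heme and iron genes numbered 13 tested of 14 listed, with 4 higher and 1 lower and a median log2 fold change of 0.02. That share, too, is near the 36.8% of all tested genes. Besides FTH1, which is on this list too, ALAS1, the enzyme that starts heme synthesis, rose from 15.1 ± 0.57 to 23.0 ± 2.1 RPKM, and the iron transporter SLC11A2 from 4.17 ± 0.22 to 6.32 ± 0.31 RPKM (SD, n = 3 each; adjusted p = 0.00219 and 0.00187). The other gene that rose was HMOX2, the constitutive heme oxygenase, from 14.5 ± 0.229 to 18.2 ± 1.06 RPKM (SD, n = 3 each; adjusted p = 0.0152), named after its values had been seen, and it lost its call in 4 alternative fits, among them those without shRNA-NC replicate 3 and shRNA-UBC9 replicate 2 or 3. FECH, which inserts iron into heme in the last step of its synthesis, fell from 9.35 ± 0.66 to 6.73 ± 0.62 RPKM (SD, n = 3 each; adjusted p = 0.00846).

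Among 27 tested glutathione enzymes and transporters, 6 were higher, 5 were lower and 16 did not pass the test. Without shRNA-NC replicate 3 the numbers were 3 higher and 3 lower. The 11 of 27 in either direction is a share near the 36.8% of all tested genes. GSTO1, an omega-class glutathione transferase, rose from 57.6 ± 4.12 to 109 ± 3.66 RPKM (log2 fold change 0.92, SE 0.09, adjusted p = 0.000208; SD, n = 3 each). The membrane-bound MGST2 and MGST1 had log2 fold changes of 0.68 and 0.56 (adjusted p = 0.00171 and 0.00571). GSTP1, the most abundant transferase of the list, fell from 196 ± 4.52 to 139 ± 18.6 RPKM (adjusted p = 0.00848), and GSTA4 from 1.01 ± 0.18 to 0.472 ± 0.025 RPKM (adjusted p = 0.00607; SD, n = 3 each).

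Of 18 tested genes of the thioredoxin and peroxiredoxin system 4 were higher and 1 was lower, which is no larger a share than the 36.8% of all tested genes that passed in either direction. SESN2, a stress-induced sestrin, rose from 4.68 ± 1.29 to 12.8 ± 1.8 RPKM, and TXNIP, which binds and inhibits thioredoxin, from 33.8 ± 6.0 to 82.2 ± 20.5 RPKM (log2 fold changes 1.46 and 1.26, adjusted p = 0.00124 and 0.00186; SD, n = 3 each). TXNRD2, the mitochondrial thioredoxin reductase, rose from 3.76 ± 0.47 to 5.61 ± 0.29 RPKM (SD, n = 3 each; adjusted p = 0.00572). The other gene that rose was MSRB3, a methionine sulfoxide reductase named after its values had been seen (log2 fold change 0.28, adjusted p = 0.028), which lost its call in 6 alternative fits, among them each that left out a sample other than shRNA-UBC9 replicate 1. PRDX3, the mitochondrial peroxiredoxin, was lower, with a log2 fold change of -0.39 (adjusted p = 0.0342), and lost its call in 8 of 14 alternative fits, 5 of which left out a sample other than shRNA-UBC9 replicate 3, with an adjusted p of up to 0.0927. The list of 17 genes that supply NADPH, which reduces glutathione and thioredoxin, had 15 tested genes. With each sample left out in turn, 5 to 7 of these were lower. With all samples, 7 were lower and 0 higher (also 0 at an unadjusted p below 0.05 in limma), beside 18.0% lower among all tested genes. They included NADK2, the mitochondrial NAD kinase, which fell from 5.78 ± 0.57 to 3.44 ± 0.20 RPKM, and NNT, the mitochondrial transhydrogenase, which fell from 14.1 ± 1.7 to 8.57 ± 0.72 RPKM (SD, n = 3 each; adjusted p = 0.00144 and 0.00244).

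Of the 6 tested genes of the list of other defences against superoxide and peroxide, 0 were higher, also at an unadjusted p below 0.05 in limma, and 1 was lower (2 without shRNA-UBC9 replicate 1). Among all tested genes 18.8% were higher and 18.0% lower, so with 6 genes this count is not a result about these defences. SOD1, the cytosolic dismutase, named after its values had been seen, had 75.6 to 78.9 RPKM in shRNA-NC and 67.8 to 73.2 RPKM in shRNA-UBC9 (log2 fold change -0.14, 95% interval -0.31 to 0.03, adjusted p = 0.184). The log2 ratio of SOD2 to SOD1 was -3.30, -2.84 and -3.83 in shRNA-NC replicates 1, 2 and 3, and -0.59, -0.39 and -0.74 in shRNA-UBC9 replicates 1, 2 and 3, so in shRNA-UBC9 SOD2 came near the level of SOD1 (exact permutation test, two-sided, p = 0.1, the smallest possible here). UCP2, a carrier of the inner mitochondrial membrane, was the gene that fell, from 22.4 ± 3.6 to 5.68 ± 1.85 RPKM (log2 fold change -2.01, adjusted p = 0.000597; SD, n = 3 each).

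Among oxidases that produce superoxide or peroxide, the catalytic subunits NOX1, CYBB, NOX3, NOX4 and NOX5 did not exceed 0.10 RPKM in any sample. AOX1, aldehyde oxidase, had 0.977, 0.395 and 0.814 RPKM in shRNA-NC replicates 1, 2 and 3, and 6.04, 6.69 and 7.79 RPKM in shRNA-UBC9 replicates 1, 2 and 3. XDH, xanthine dehydrogenase, had 1.10 to 1.76 RPKM in shRNA-NC and 2.91 to 7.12 RPKM in shRNA-UBC9. The log2 fold changes of AOX1 and XDH were 3.13 and 1.73 (adjusted p = 0.000137 and 0.00471). CYBA, the membrane partner of the NADPH oxidases, rose from 38.6 ± 3.09 to 75.9 ± 0.174 RPKM (SD, n = 3 each; adjusted p = 0.000157), and was named after its values had been seen. AOX1 had 1 shRNA-NC sample below 0.5 RPKM and so needed shRNA-UBC9 to pass the filter on low values.

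**Figure D3:**
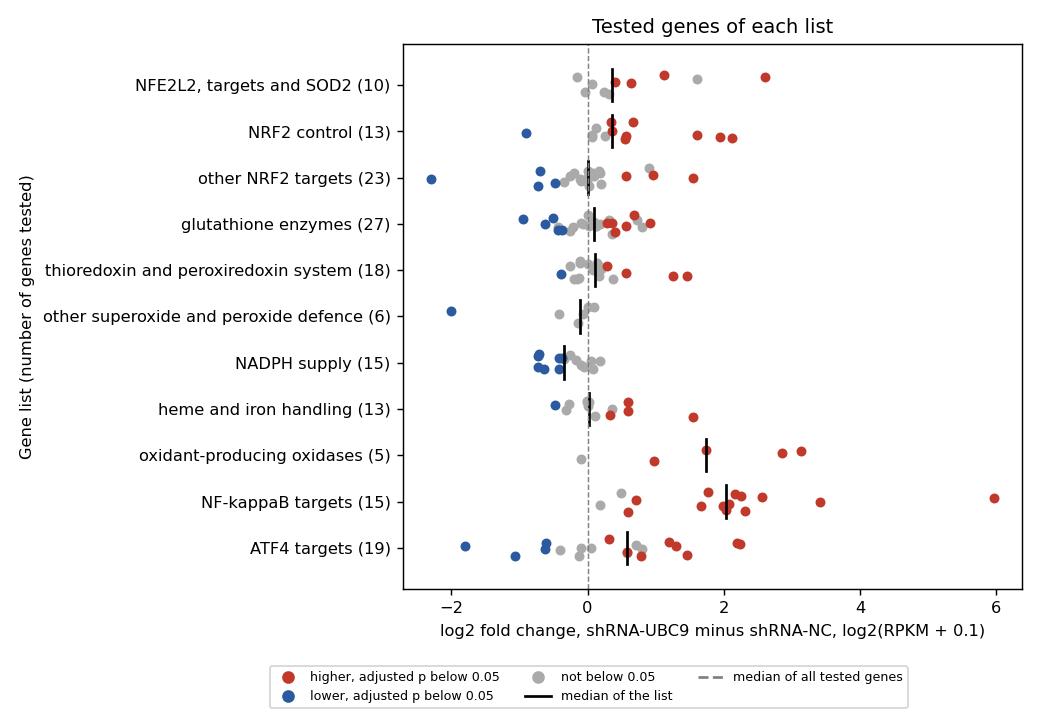
Log2 fold change (shRNA-UBC9 minus shRNA-NC, log2(RPKM + 0.1)) of every tested gene on each list, 1 point a gene, red for higher and blue for lower at an adjusted p below 0.05 in limma, grey otherwise, with a black bar at the median of the list and a dashed line at the median of all tested genes. The median of NF-κB targets is 2.03 and that of NADPH supply is -0.35, while the medians of other NRF2 targets and of heme and iron handling are 0.002 and 0.02.

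NF-κB targets are given beside SOD2 because SOD2 is known as such a target. All 15 on the list, which was chosen with earlier results of these data known, were tested. Of them 13 were higher and 0 lower, also 0 lower at an unadjusted p below 0.05 in limma, beside 18.8% higher among all tested genes. Upward DEGs numbered 11, beside 5.20% of all tested genes. Where at least 1 RPKM was required in all 6 samples, TRAF1, BIRC3, BCL2A1 and LTB were no longer tested, and 10 of the genes left were higher. BCL2A1, a survival factor, had 0.190 to 0.716 RPKM in shRNA-NC and 26.7 to 32.8 RPKM in shRNA-UBC9 (log2 fold change 5.97). It reached 0.5 RPKM in 1 shRNA-NC sample and so needed shRNA-UBC9 to pass the filter on low values. TNFAIP3, a brake on NF-κB, had 3.76 to 10.6 and 77.0 to 79.6 RPKM (log2 fold change 3.42), and the adhesion molecule ICAM1 3.31 to 8.47 and 30.7 to 37.9 RPKM (log2 fold change 2.56), with adjusted p-values of 1.57e-05, 0.000256 and 0.000617. Within shRNA-NC, SOD2 was highest in replicate 2, lower in replicate 1 and lowest in replicate 3. The same order was found for 13 of the 15 NF-κB targets, 86.7%, and for 13.2% of all tested genes. In shRNA-UBC9, where SOD2 had the same order, it was shared by 3 of the 15 NF-κB targets, 20.0%, and by 13.1% of all tested genes. Of 19 targets of ATF4, the factor of the amino acid response described below, 4 shared it in shRNA-UBC9, 21.1%, so there the share was not particular to NF-κB targets. In shRNA-NC 1 of these 19 shared it, 5.26%. These counts were made after the values had been seen, and these genes share the libraries in which the order was read.

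**Figure D4:**
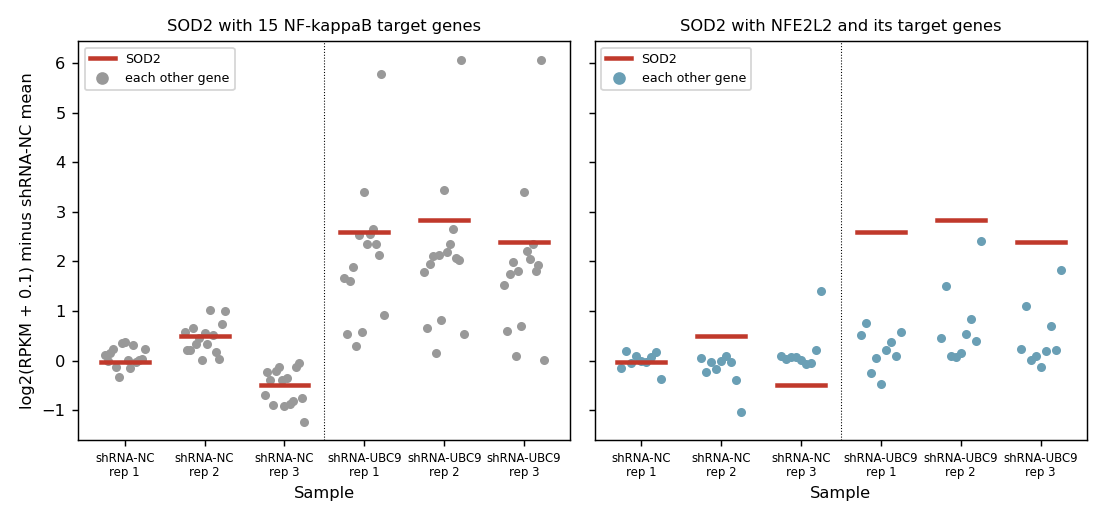
Level in each of the 6 samples relative to the shRNA-NC mean of the same gene, as log2(RPKM + 0.1), with SOD2 as a red bar, beside 15 NF-κB target genes as grey points on the left and NFE2L2 with its 8 targets as blue points on the right. In shRNA-NC the red bar is highest in replicate 2 and lowest in replicate 3, as are most grey points, and in all 3 shRNA-UBC9 samples it lies above every blue point.

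The 5 genes whose log2 values, centred on their mean, lay closest to those of SOD2 over the 6 samples were ICAM1, HBEGF, OAS3, EBI3 and TGFA, at Euclidean distances from 0.50 to 0.60 log2 units. HBEGF, a ligand of the EGF receptor, went from 7.0 ± 1.76 to 48.1 ± 6.0 RPKM, close to SOD2 in level as well (SD, n = 3 each). The likeness of EBI3 rests on low values, 0.141 ± 0.054 and 1.15 ± 0.24 RPKM. The 5 closest to NFE2L2 were ZFAND6, GINM1, FAM177A1, STXBP3 and TSPYL2, at distances from 0.05 to 0.07 log2 units, with log2 fold changes between 0.38 and 0.40. Because both sets were chosen by this likeness, their group differences are a description and nothing else was drawn from them.

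SLC7A11 is also known as a target of ATF4, the factor of the amino acid response. Of 19 tested ATF4 targets 8 were higher and 4 lower, beside 18.8% and 18.0% of all tested genes. GDF15, a stress-induced cytokine, rose from 6.70 ± 0.94 to 32.5 ± 8.5 RPKM, and CEBPB, a transcription factor, from 15.3 ± 1.8 to 70.6 ± 11.4 RPKM (SD, n = 3 each; adjusted p = 0.000109 and 3.06e-05). SLC7A5, the leucine importer that also pairs with SLC3A2, fell from 231 ± 34.8 to 68.5 ± 21.7 RPKM (log2 fold change -1.80, adjusted p = 0.000700; SD, n = 3 each). PHGDH, the entry enzyme of serine synthesis, had 43.0, 17.6 and 37.8 RPKM in shRNA-NC replicates 1, 2 and 3 and 11.5, 15.5 and 17.2 RPKM in shRNA-UBC9 (adjusted p = 0.0292), and lost its call in 5 alternative fits, among them those without shRNA-NC replicate 1 or 3 and shRNA-UBC9 replicate 1 or 2, with an adjusted p of up to 0.0995. The others that fell were SLC3A2, described above, and PSAT1, the next enzyme of serine synthesis, named after its values had been seen (log2 fold change -0.61, adjusted p = 0.0488), which lost its call in 7, those same 4 included. Without shRNA-NC replicate 1 the lower ATF4 targets numbered 1, and without shRNA-NC replicate 3, shRNA-UBC9 replicate 1 or shRNA-UBC9 replicate 2 they numbered 2, while without shRNA-NC replicate 2 they numbered 6. shRNA-NC replicate 2 was low not only for SLC7A11: ASNS, asparagine synthetase, named after its values had been seen, had 4.11 RPKM there against 16.4 and 15.4 RPKM in replicates 1 and 3. Over all tested genes this replicate was the lowest of shRNA-NC for 32.1%. Not every ATF4 target was low there: DDIT4, also named after its values had been seen, had 72.4 RPKM against 51.6 and 64.7 RPKM in replicates 1 and 3.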

How the data were processed

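T24 RNA-seq values of 3 shRNA-NC and 3 shRNA-UBC9 samples were grouped by the GEO labels. Reads had been trimmed and mapped by the authors to GRCh38 (hg38 in the submitters' processing notes) in CLC Biomedical Genomics Workbench 4, and the deposited unit is RPKM per gene. The annotation release, strand setting and handling of shared reads are not given in the sources used here. RPKM does not correct for RNA composition.

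Genes that reached 0.5 RPKM in 3 or more samples were kept, and log2(RPKM + 0.1) was fitted with limma 3.58.1 in R 4.3.3 (eBayes with an intensity trend). P-values were adjusted over all tested genes by the Benjamini-Hochberg method. Fold changes on this scale understate those of low genes. No count model was used, since the files hold no counts. Single ratios were compared with exact permutation tests in scipy 1.17.1. The genes described and the lists, written from general knowledge, were chosen with earlier results of these data known. For each pathway list the text names at most 3 called genes in each direction. Gene positions are from GENCODE 44. Alternatives were other pseudocounts, filters and scalings, no trend, a replicate block and leaving out each sample. Some genes are not reported here.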

Additional observations from a re-analysis of the deposited data

How the results depend on the processing

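SOD2, HMOX1 and SRXN1 kept their direction and an adjusted p below 0.05 in all 14 alternative fits. NFE2L2 lost the call in 3 of them. Genes that had not passed the test changed sign in 1 fit each: NQO1 at 0.058 and GCLM at 0.017 on the log2 scale without shRNA-UBC9 replicate 1, and TXNRD1 at -0.015 without shRNA-NC replicate 2. With each sample left out in turn their log2 fold changes ran from -0.108 to 0.058, from -0.297 to 0.017 and from -0.015 to 0.123. With a pseudocount of 1 the DEGs numbered 552 (391 higher, 161 lower) against 981 (646 higher, 335 lower), since a larger pseudocount shrinks the change of low genes. With an RPKM of at least 1 required in all 6 samples they numbered 552 (342 higher, 210 lower), with fewer genes tested, and AKR1C1 was not among them. With each sample left out in turn the DEGs numbered 926 to 1065 (604 to 702 higher, 308 to 363 lower), and of the 10 genes 1 to 3 were DEGs, 3 to 5 were higher and 0 were lower. Of the 138 tested genes on the other pathway lists 69 passed the test, and 55 to 66 when a sample was left out, beside 36.8% of all tested genes. These lists include the NF-κB and ATF4 targets and were chosen with earlier results of these data known. The count is therefore not a result about antioxidant genes. Quantile normalization and median scaling moved the median log2 fold change of all tested genes from 0.01 to -0.04 in both cases. Replicate numbers are shared by the groups, but the deviations of samples with the same number correlated at -0.37, 0.07 and -0.17, and shRNA-NC replicate 1 correlated best with shRNA-UBC9 replicate 3 (0.53), so the numbers were not taken as pairs. With a replicate block, 974 DEGs were found (642 higher, 332 lower), 3 of the 10 genes were higher, and the adjusted p of NFE2L2 was 0.0601. Depth limits AKR1C1 most: with no counts in the files, no counting error can be given for its values below 1 RPKM.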

Other observations

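Within the shRNA-UBC9 group, replicate 2 held the highest value for 8 of the 10 genes (all but NFE2L2 and TXNRD1) and replicate 1 the lowest for 7 (HMOX1, NQO1, TXNRD1, GCLM, SRXN1, SLC7A11 and AKR1C1), while NFE2L2 was highest in replicate 1. Over all tested genes replicate 2 was the highest of its group for 30.8% and replicate 1 the lowest for 41.7%. BACH1 had 22.4 RPKM in replicate 1 against 12.3 and 9.37 RPKM in replicates 2 and 3. Summed RPKM was 231244 in replicate 1, 238944.5 in replicate 2 and 236054.3 in replicate 3. The part of this in the order was not tested.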
